A study of Mus musculus with 8 samples.

Results

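The genes described here are the expressed mouse genes that stretch over 400 kb or more of an autosome. They were taken from the exon coordinates of the deposited count files by a rule: at least 400 kb between the first and the last exon base, a mean CPM of at least 1 (counts of a gene scaled to the library total) over all 8 libraries, and a symbol that neither starts with Gm nor ends in Rik. The rule also bars Trerf1 and the immunoglobulin and T cell receptor loci. It found 104 of the 53647 genes in the files. Of 363 autosomal genes of that span, 107 had no count in any library, 108 reached the mean CPM of 1, and 4 of those were left out for their symbols, among them Gmds, whose name happens to begin with Gm. Because mean level and span chose the genes, both are given below as a description, whereas the difference between genotypes was no part of the choice.

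RNA was sequenced from lineage-negative (Lin-) CD127+ mouse bone marrow cells, with 4 libraries labelled KO and 4 labelled WT. The genotype label of the KO libraries reads Tref1 -/- and that of the WT libraries Trerf1 +/+. CD127 is the interleukin 7 receptor alpha chain, and Trerf1 encodes a zinc finger transcription factor. The strain, age and sex of the mice and the exons removed in the KO allele are not given in the sources used here. Nor is it said whether the library numbers stand for separate animals, and a p-value therefore covers only the spread among the libraries at hand. In a sorted population, fewer cells of a type and less RNA per cell cannot be told apart.

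The length of such a gene lies almost wholly in its introns. RNA polymerase II copies introns and exons alike before the introns are spliced out and degraded, so a transcript of a very long gene takes hours to complete, and its synthesis leans on elongation factors and topoisomerases more than that of a short gene. Very long genes are best known from neurons, where many encode adhesion molecules, channels and synaptic scaffolds, and several of the longest coincide with common fragile sites, regions that break when DNA replication is disturbed. In lymphoid and myeloid cells, long genes in use include regulators of Rac GTPases, RNA-binding proteins and lymphoid transcription factors.

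Total counts ran from 31109744 to 73414626 per library, which was 3.67 to 4.003 times the RSEM expected counts, so a count does not stand for 1 independent fragment, and the reason was not tested. The ratio was highest in the library labelled KO4, where also the share of even numbers among counts of 1 to 100 was lowest (59.9%, against 67.2% to 76.6% in the other libraries). Trerf1, the targeted gene, was at 13.4, 12.8, 12.1 and 22.1 TMM-scaled CPM (CPM after edgeR's trimmed mean scaling) in KO1 to KO4, against 29.0, 32.1, 27.1 and 22.3 CPM in WT1 to WT4. Levels of single genes called CPM below are in this unit, whereas levels summed over a marker list are unscaled CPM throughout. The library labelled KO4 thus stood at the level of WT4, and the counts over the members and over gene groups are given below with and without it, the values of gene groups without it having been added after the data were seen. Il7r, which encodes CD127, was at 354 ± 45.8 CPM in KO and 324 ± 46.8 CPM in WT libraries (SD, n = 4 each). All 17 genes of an early lymphoid progenitor list were tested, with summed levels of 7367 to 10995 unscaled CPM in KO and 7171 to 9407 unscaled CPM in WT libraries.

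The starts of the pair of genes below are shown because both belong to the DOCK family of Rac activators, and because Dock4 was the only member whose KO and WT libraries did not overlap, whereas Dock2 was among the most abundant members. Each sequence is the 250 bases before the gene's single start in the RefSeq promoter table of GRCm38.p6, 5′ to 3′ on the gene's strand, with each CG dinucleotide in capitals. The Dock4 window lies at chr12:40445803-40446052 on the plus strand and the Dock2 window at chr11:34783906-34784155 on the minus strand.
Dock4: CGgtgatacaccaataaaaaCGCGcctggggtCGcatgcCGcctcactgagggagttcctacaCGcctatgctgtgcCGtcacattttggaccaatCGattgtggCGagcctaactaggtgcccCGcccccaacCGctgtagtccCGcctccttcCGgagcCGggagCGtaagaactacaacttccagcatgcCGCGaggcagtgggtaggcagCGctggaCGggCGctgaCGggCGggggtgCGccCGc
Dock2: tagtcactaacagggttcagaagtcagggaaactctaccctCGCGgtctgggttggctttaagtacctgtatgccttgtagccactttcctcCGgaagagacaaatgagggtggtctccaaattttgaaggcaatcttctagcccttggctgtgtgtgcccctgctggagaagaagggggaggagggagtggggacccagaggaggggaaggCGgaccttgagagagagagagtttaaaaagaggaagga
The Dock4 window held 24 CG dinucleotides and the Dock2 window 4, against a median of 6 over the 32851 promoters of the table, of which 92.1% held at least 1. The dinucleotide is its own reverse complement, so both strands give the same count. Of the 104 genes, 82 (78.8%) had a start in that table, too few to compare their starts with those of other genes. Among the 82, 51 had 1 start and 31 had several, and in 18 the outermost starts lay more than 100 kb apart. Celf2 had 5 starts over 675 kb and Foxp1 3 starts over 493 kb, so that several transcripts of different length can begin within 1 span.

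The genes lay on all 19 autosomes, 10 of them on chromosome 13, and 102 were typed as protein coding and 2 as processed transcripts (Mir99ahg and Snhg14) in GENCODE M21. Their median span was 534 kb and the longest was Macrod2, at 1998 kb (chromosome 2, 140237229 to 142234886, plus strand, in coordinates of the count files, taken as GRCm39). Exons made up a median of 1.98% of the span, against 19.8% in 11035 shorter expressed autosomal genes. The exons themselves were also longer in sum, with a median of 12371 bases against 4468 bases, in a median of 26 against 10 exon blocks. The extreme was Fhit, a dinucleoside triphosphate hydrolase at a fragile site (chromosome 14, 11307738 to 12919681, plus strand), where 1491 exon bases were spread over 1612 kb, or 0.0925% of the span. At the span threshold, the members just inside were Dst (400436 bases), Dock4 (400922), Hivep3 (404261) and Slc39a11 (405226), and the genes just outside were Plxdc2 (399535), Adk (395995), Esr1 (394021) and Itpr2 (393924). At the level threshold, Ryr3 (mean 1.02 unscaled CPM), Pde1c (1.08), Reln (1.18) and Slc25a21 (1.22) lay just inside, and Klf12 (0.895), Ptprk (0.853) and Cacna1c (0.807) outside.

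Levels spread over more than 2 orders of magnitude. By unscaled mean CPM, 12 genes stood at 100 or more, 48 between 10 and 100 and 44 under 10, of which 15 were under 2. Per length of transcript the median was 6.14 TPM (the length-scaled level that RSEM gives), against 21.5 TPM in the shorter expressed genes. The order by mean TPM over the 8 libraries began with Celf2, an RNA-binding splicing regulator, at 197 TPM. Foxp1, a forkhead transcription factor needed in early B cell development, followed at 184 TPM. Rabgap1l, a Rab GTPase activating protein, stood at 165 TPM, Arhgap15, a Rac inactivator, at 116 TPM, and Snd1, a nuclease domain protein of RNA granules, at 105 TPM. Next came Dock2, the Rac activator of lymphocyte migration, at 90.1 TPM, ahead of Oxr1 at 72.7 TPM and Elmo1, the partner of DOCK proteins, at 68.9 TPM. Gphn, Pde4b, Snx29 and Camk1d completed the first 12, at 61.8, 60.3, 58.4 and 57.8 TPM. The first 12 therefore included the Rac activator Dock2, its partner Elmo1 and the opposing Arhgap15.

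Over the 12 members of highest TPM, the highest of the 8 libraries exceeded the lowest by 1.18-fold in Camk1d and Foxp1 and by 2.51-fold in Snx29. Celf2 (chromosome 2, 6544505 to 7514374, minus strand) was at 485, 459, 474 and 551 CPM in KO1 to KO4, against 494, 514, 506 and 476 CPM in WT1 to WT4. Foxp1 (chromosome 6, 98902299 to 99499682, minus strand) was at 408, 451, 396 and 433 CPM in KO1 to KO4, and 406, 441, 439 and 382 CPM in WT1 to WT4. For both genes the WT range lay inside or overlapped the KO range, with log2 fold changes (KO against WT) of -0.01 ± 0.09 and 0.02 ± 0.09 (SE). Dock2 (chromosome 11, 34176815 to 34674719, minus strand) was at 398, 377, 339 and 485 CPM in KO1 to KO4, against 430, 412, 383 and 425 CPM in WT1 to WT4. Its highest value was in the library labelled KO4 and its lowest in KO3. The members with the smallest SD of log2 CPM over the 8 libraries (0.08 each) were Bcas3, Celf2, Camk1d and Fars2, the mitochondrial phenylalanyl-tRNA synthetase. Bcas3 was at 50.4, 47.5, 46.3 and 45.6 CPM in KO1 to KO4, and 51.7, 48.6, 43.6 and 49.4 CPM in WT1 to WT4.

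No member passed the test of KO against WT. At an adjusted p under 0.05 (edgeR's quasi-likelihood test, Benjamini-Hochberg over all 16352 genes tested), 0 of 104 members were called, where 0 genes (0.0%) were called over the whole table. At an unadjusted p under 0.05 there were 2 members (1.92%), against 1.97% of all genes tested, so the members' share was near that of the table. Dock4 was the 1 member lower in KO, where 0.93% of all genes were lower at that p, and Mecom the 1 higher, where 1.04% were. DESeq2 also called 0 members, with 4 at an unadjusted p under 0.05 and a background of 1.88%. The estimates nevertheless leaned one way: 70 of 104 members (67.3%) had a lower estimate in KO, where 48.3% of all genes tested did, and the median log2 fold change was -0.09, against 0.01 over all genes. This lean was larger without the library labelled KO4, where the median was -0.22, with 78 lower estimates, and 20 members (19.2%) had an unadjusted p under 0.05, 19 of them lower, against 5.90% of all genes. Without KO4 and WT4 together, 24 members (23.1%, 23 of them lower) had an unadjusted p under 0.05 against 8.75% of all genes, the median was -0.21, and 0 members were called after adjustment against 0.0736% of all genes. Without WT4 alone, 8 members (7.69%) had an unadjusted p under 0.05 against 6.08% of all genes, and with the replicate number as a block 11 (10.6%) did against 3.88%. The lean was smaller without KO2, with a median of -0.04, 63 lower estimates and 1 member at that p against 1.73% of all genes, and without KO3, with -0.05, 61 lower estimates and 1 member against 1.45%. With no filter on low counts 5 members had an unadjusted p under 0.05, against 2.78% of all genes.

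Other transcripts also differed between the libraries beside this lean, though no gene of the lists below was called by edgeR. Xist, a noncoding transcript that coats the silenced X chromosome, was at 447, 0.0617, 498 and 768 CPM in KO1 to KO4, against 531, 0.0607, 0.613 and 563 CPM in WT1 to WT4. KO2, where the median deviation of the long genes from their own means was lowest (-0.17), was thus the 1 KO library in which Xist was nearly absent. KO3, where the long genes took the lowest share of counts (0.454%), held Xist at 498 CPM. In WT2 and WT3, where Xist was also nearly absent, the median deviations were 0.09 and 0.06. With Xist as a covariate 13 members (12.5%) had an unadjusted p under 0.05 (edgeR) against 3.0% of all genes, at a median log2 fold change of -0.09. Of the marker genes tested, all 9 of monocytes and macrophages, all 7 of neutrophils and 8 of 10 of T cells had higher estimates in KO. Their summed levels were 479 to 631, 158 to 323 and 443 to 576 unscaled CPM in KO, against 359 to 495, 175 to 286 and 385 to 476 unscaled CPM in WT libraries. Few genes carried the neutrophil and T cell sums. Mpo was at 226 ± 65.9 CPM in KO and 212 ± 43.7 CPM in WT libraries, while Ngp was at 0.0617 to 22.7 CPM. Lck was at 278 ± 62.4 against 241 ± 49.0 CPM and Cd4 at 137 ± 98.4 against 111 ± 71.0 CPM. Cd3e was at 8.09 ± 2.80 against 6.21 ± 1.57 CPM (SD, n = 4 each). Lower estimates were found in 8 of 10 ILC2 markers, with summed levels of 190 to 421 CPM in KO and 305 to 647 CPM in WT libraries. Rora, 1 of these 8, is itself a member. The 9 other ILC2 markers summed to 159 to 361 CPM in KO and 270 to 571 CPM in WT libraries. All 14 erythroid markers also had lower estimates, with 118 to 518 CPM in KO and 102 to 1127 CPM in WT libraries. Without the library labelled KO4, 7 of the 9 monocyte and macrophage, 6 of the 7 neutrophil and 8 of the 10 T cell markers had higher estimates, and 9 of the 10 ILC2, all 14 erythroid and all 7 basophil and mast cell markers lower ones. With all 8 libraries the 7 basophil and mast cell markers had 3 higher and 4 lower estimates. Their sums were 50.4, 59.9, 133 and 381 unscaled CPM in KO1 to KO4, and 53.1, 70.5, 213 and 303 unscaled CPM in WT1 to WT4. Library 4 was thus highest in each group. None of these markers was at 0 in every library, and their part in the lean was not tested.

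**Figure D1:**
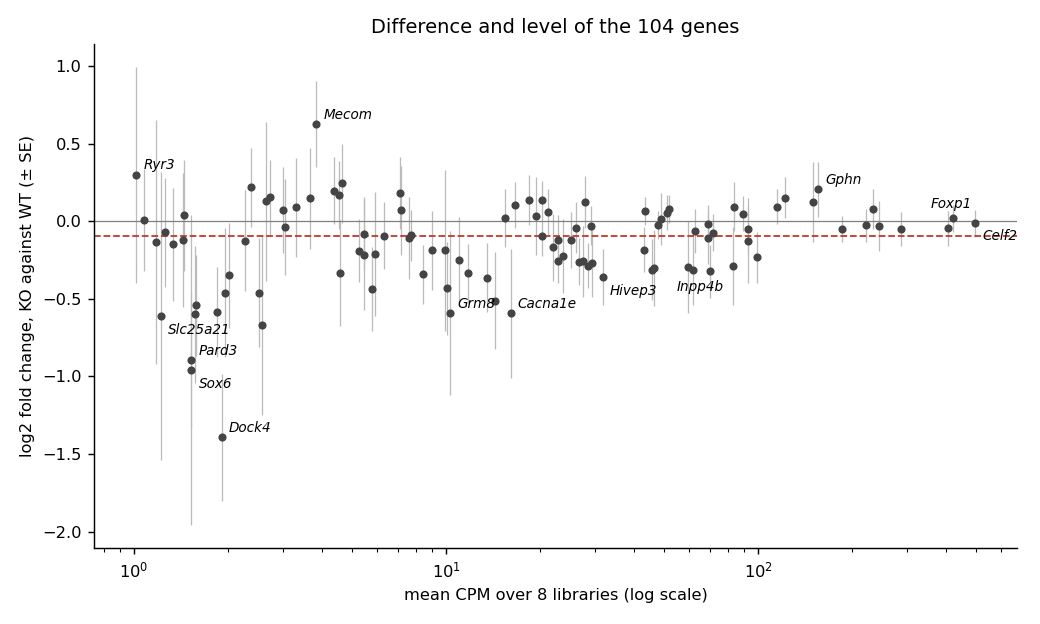
Each of the 104 genes is plotted by its mean unscaled CPM over 8 libraries (log axis) and its log2 fold change in KO against WT with its SE (vertical bars), with a dashed line at the median of -0.09. The points scatter more widely at low levels, where Dock4 lies lowest and Mecom highest, and lie close to 0 near Celf2 and Foxp1.

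Dock4, a Rac and Rap1 activator (chromosome 12, 40495951 to 40896873, plus strand), was the only member in which every KO library lay below every WT library, 1 of 104 (0.962%) against 0.544% of all genes tested, and in 0 members did every KO library lie above every WT library, against 0.74%. Its levels were 0.614, 0.494, 1.11 and 1.93 CPM in KO1 to KO4, from 22, 16, 36 and 128 counts. They were 2.70, 3.34, 2.36 and 2.65 CPM in WT1 to WT4, from 93, 220, 77 and 186 counts. Its log2 fold change of -1.39 ± 0.41 (SE) had an unadjusted p of 0.00619 and an adjusted p of 0.999 (edgeR), and the library labelled KO4 came nearest to WT. Over 17 other settings of the fit the estimate ran from -1.92 to -1.17, and the smallest adjusted p was 0.166, with KO4 and WT4 left out. The gene passed the span threshold by under 1 kb.

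Mecom, a transcription factor of blood stem cells (chromosome 3, 30005445 to 30602157, minus strand), had the smallest p among higher estimates. It was at 6.25, 4.20, 4.92 and 3.42 CPM in KO1 to KO4, against 3.22, 2.34, 2.36 and 4.21 CPM in WT1 to WT4. The groups overlapped, since the library labelled KO4 lay below WT4, and KO2 also lay just below it. Its log2 fold change of 0.63 ± 0.28 (SE) had an unadjusted p of 0.0455 and an adjusted p of 0.999 (edgeR), and over the 17 other settings the unadjusted p ran from 0.00535 to 0.145. The other higher estimates of small p were modest: Oxr1, a protein of the oxidation response, had 0.15 ± 0.13, Gphn, the scaffold gephyrin, 0.20 ± 0.18 and Wwox, a fragile site oxidoreductase, 0.14 ± 0.12. Dock1, Kalrn and Smyd3 had estimates between 0.08 and 0.22. The 4 KO levels of Gphn were 129, 216, 168 and 152 CPM, against 118, 175, 165 and 120 CPM in WT1 to WT4, with KO2 and WT2 highest in their groups.

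Lower estimates of small p after Dock4 were found in Pard3, Hivep3, Sdk1, Dennd1a, Vps13b, Zfhx3 and Lrba, with unadjusted p from 0.068 to 0.102 and adjusted p of 0.999 each (edgeR). Hivep3, a zinc finger regulator of T cell and bone biology, was at 31.1, 22.9, 21.7 and 35.6 CPM in KO1 to KO4, against 38.8, 34.3, 28.7 and 41.1 CPM in WT1 to WT4. Vps13b, a lipid transfer protein of the Golgi, was at 69.6, 46.6, 51.2 and 80.6 CPM in KO1 to KO4, against 91.5, 78.6, 71.9 and 68.5 CPM in WT1 to WT4. In both genes KO2 and KO3 lay below every WT library while KO1 and the library labelled KO4 lay within the WT range. Dennd1a, an exchange factor for Rab35, was at 24.1, 25.3, 22.4 and 30.5 CPM in KO1 to KO4, against 35.7, 35.2, 28.7 and 25.4 CPM in WT1 to WT4. Lrba, a vesicle protein that preserves CTLA-4, was at 9.87, 7.59, 10.7 and 13.2 CPM in KO1 to KO4, against 14.4, 14.3, 12.9 and 10.8 CPM in WT1 to WT4. In both of these, KO1 to KO3 lay below every WT library and the library labelled KO4 did not. Pard3, a polarity protein, and Sdk1, an adhesion protein, were low throughout, at 1.052 ± 0.370 and 1.46 ± 0.197 CPM in KO against 1.97 ± 1.20 and 2.20 ± 0.612 CPM in WT libraries (SD, n = 4 each).

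**Figure D2:**
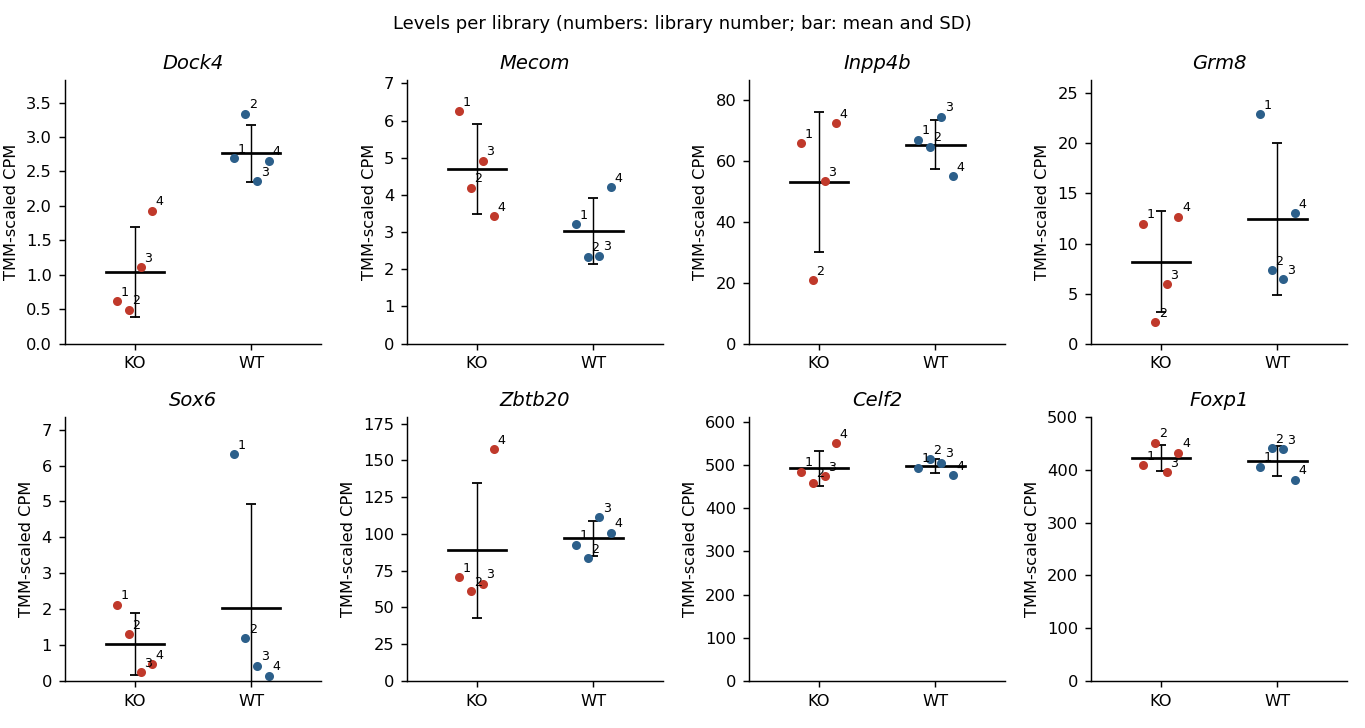
TMM-scaled CPM of 8 members in KO (left) and WT (right) libraries, numbered by library, with the mean (horizontal bar) and SD (vertical bar, drawn down to 0 at most). The groups are apart for Dock4 alone, KO2 is far below the other libraries for Inpp4b, the library labelled KO4 stands above all others for Zbtb20, and WT1 does so for Sox6.

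The same arrangement, with KO1 to KO3 below every WT library and the library labelled KO4 higher, recurred in the list. In 13 members (12.5%) KO1, KO2 and KO3 all lay below all WT libraries, against 4.27% of all genes tested. These were Zbtb20, Snx29, Lpp, Exoc4, Dennd1a, Slc9a9, Exoc6b, Mast4, Auts2, Nav2, Lrba, St6galnac3 and Dock4. Zbtb20, a zinc finger repressor, was at 70.7, 61.0, 66.2 and 157 CPM in KO1 to KO4, against 92.6, 83.4, 111 and 101 CPM in WT1 to WT4. Snx29, a sorting nexin, was at 53.5, 70.5, 49.6 and 125 CPM in KO1 to KO4, against 94.5, 91.6, 96.9 and 82.3 CPM in WT1 to WT4. In both genes the library labelled KO4 was the highest of all 8, so the group means overlapped within their SD, at 88.8 ± 45.9 against 97.0 ± 11.8 CPM for Zbtb20 and 74.6 ± 34.7 against 91.3 ± 6.39 CPM for Snx29. Auts2, a chromatin-associated protein, was at 16.1, 18.1, 19.2 and 33.5 CPM in KO1 to KO4, against 22.2, 33.9, 23.0 and 22.6 CPM in WT1 to WT4. Exoc4, a subunit of the exocyst that tethers secretory vesicles, was at 54.6, 58.8, 51.9 and 79.9 CPM in KO1 to KO4, against 60.9, 73.6, 59.4 and 62.3 CPM in WT1 to WT4.

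Taken library by library, the 104 genes as a set stood at different heights. The median deviation of log2 CPM from each gene's own mean over the 8 libraries was -0.00, -0.17, -0.14 and 0.20 in KO1 to KO4, and 0.08, 0.09, 0.06 and -0.02 in WT1 to WT4. Above their own mean were 51, 33, 22 and 83 members in KO1 to KO4, and 62, 64, 61 and 50 in WT1 to WT4. KO libraries were thus both the lowest and the highest, and the WT medians lay between those of KO2 and KO4. Of the members, 27 were highest in WT1, 23 (22.1%) in the library labelled KO4 and 22 in WT3. Over all genes tested 14.5% were highest in the library labelled KO4, and the shares for WT1 and WT3 were not computed. Lowest in KO2 were 31 members (29.8%), against 14.1% of all genes tested.

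**Figure D3:**
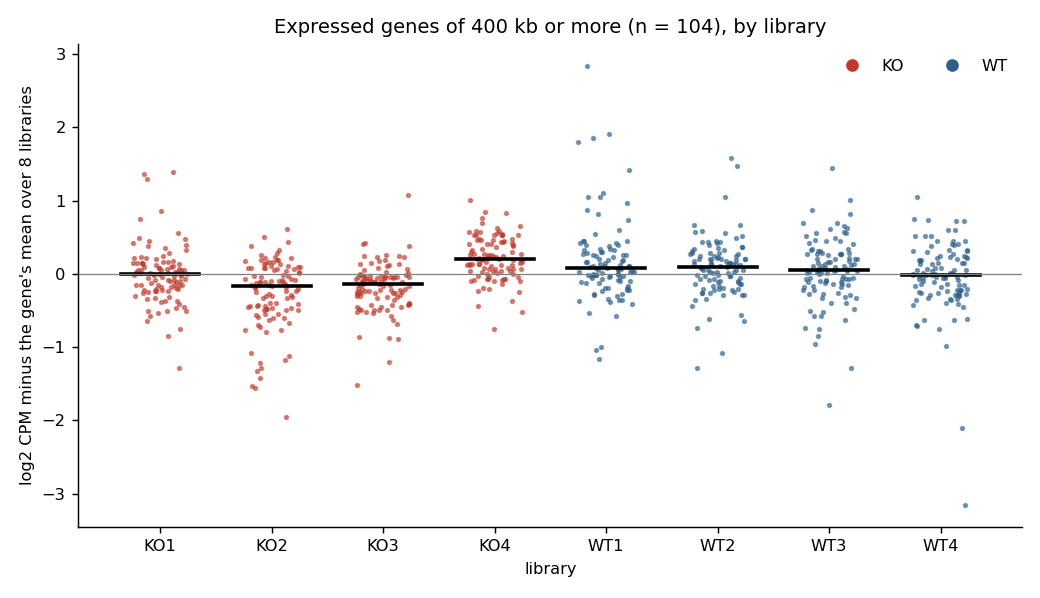
Each point is 1 of the 104 genes in 1 library, plotted as its log2 CPM minus its mean over the 8 libraries, with the library's median as a black bar. The bar of the library labelled KO4 lies at 0.20 and those of KO2 and KO3 at -0.17 and -0.14, while the 4 WT bars lie from -0.02 to 0.09.

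Together the 104 genes took 0.493%, 0.478%, 0.454% and 0.578% of all counts in KO1 to KO4, and 0.534%, 0.555%, 0.542% and 0.479% in WT1 to WT4. The means were 0.501 ± 0.0538% in KO and 0.527 ± 0.0335% in WT libraries (SD, n = 4 each), a difference of -0.0264 percentage points that is smaller than either SD. Without the library labelled KO4 the KO mean was 0.475 ± 0.0199% (SD, n = 3) and the difference -0.0521 percentage points, larger than both SDs. It was -0.0683 without KO4 and WT4 and -0.0108 without KO3. The library labelled KO4 was the highest of all and WT4 the lowest WT library. In RSEM expected counts the shares kept this order of extremes, at 0.427%, 0.419%, 0.399% and 0.515% in KO1 to KO4, and 0.461%, 0.479%, 0.465% and 0.423% in WT1 to WT4.

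Some unspliced and nuclear transcripts had the same 4 libraries on top. Transcripts of type TEC, mostly unspliced loci that await experimental support, took 0.117%, 0.119%, 0.126% and 0.308% of counts in KO1 to KO4, and 0.189%, 0.208%, 0.269% and 0.148% in WT1 to WT4. Kcnq1ot1, a long unspliced nuclear RNA that silences its imprinted neighbours, was at 31.3, 29.3, 27.8 and 116 CPM in KO1 to KO4, against 55.5, 73.5, 106 and 37.9 CPM in WT1 to WT4. The library labelled KO4 and WT1 to WT3 were therefore the 4 highest for the long genes, for TEC transcripts and for Kcnq1ot1. Malat1, an abundant RNA retained in the nucleus, had another order, at 1573, 2051, 2122 and 2609 CPM in KO1 to KO4, against 1887, 1664, 2254 and 2449 CPM in WT1 to WT4. With the TEC share as a covariate, the median log2 fold change of the members was -0.06, with 65 lower estimates and 1 member at an unadjusted p under 0.05 against 1.92% of all genes. The part of unspliced RNA in the members' levels was not tested further. Mitochondrial transcripts took 0.703% to 0.790% of counts in KO and 0.715% to 0.844% in WT libraries.

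**Figure D4:**
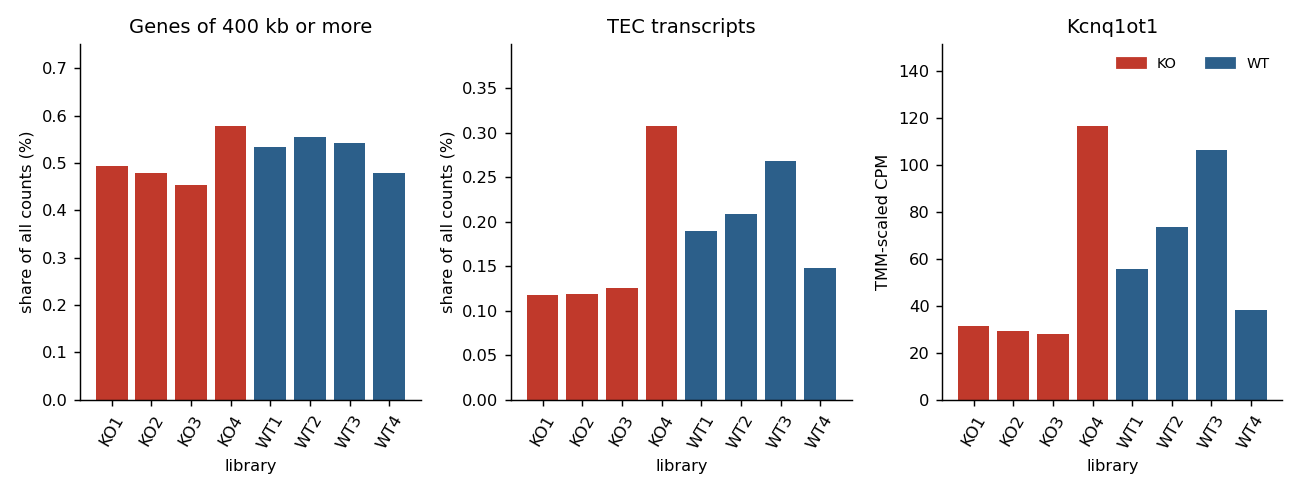
Bars give, for the 4 KO and 4 WT libraries, the share of all counts in the 104 long genes (left), the share in TEC transcripts (middle) and the TMM-scaled CPM of Kcnq1ot1 (right), each axis starting at 0. The library labelled KO4 and WT1 to WT3 are the 4 highest bars in each panel, with KO4 at 0.578%, 0.308% and 116 CPM.

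The median difference between the groups ran with span across all expressed autosomal genes, though the libraries of a group did not run alike. From genes under 10 kb to those of 400 kb or more, the median deviation of log2 CPM went from 0.01 to -0.004 in KO1 and from 0.08 to -0.17 in KO2. It went from 0.05 to -0.14 in KO3 but from -0.03 to 0.20 in the library labelled KO4. In WT1 to WT3 it rose, to 0.08, 0.09 and 0.06, while in WT4 it went from 0.04 to -0.02. The median log2 fold change in KO against WT was 0.05 for 2726 genes under 10 kb, of which 34.7% had a lower estimate. It was 0.02 for 5441 genes of 10 to under 50 kb (44.5% lower), -0.03 for 1629 genes of 50 to under 100 kb (58.1% lower) and -0.04 for 891 genes of 100 to under 200 kb (62.6% lower). For 343 genes of 200 to under 400 kb it was -0.07 (65.6% lower), and for the 104 genes of 400 kb or more -0.09 (67.3% lower). Without the library labelled KO4 the medians were 0.08, 0.03, -0.04, -0.07, -0.12 and -0.22 from the shortest class to the longest, so the last step was then the largest. Without KO4 and WT4 together they were 0.107, 0.037, -0.051, -0.070, -0.156 and -0.210, and the last step was not the largest. The genes of 400 kb or more were also more variable, with a median SD of log2 CPM over the 8 libraries of 0.334, against 0.275 in the class of 200 to under 400 kb and 0.217 in that under 10 kb. Their median level was lower too, at 16.4 unscaled CPM against 32.3 CPM under 10 kb. Without KO2 the order of the last pair of classes turned, at -0.06 for 200 to under 400 kb and -0.04 for 400 kb or more. With the TEC share as a covariate the medians ran from 0.03 in the shortest class to -0.06 in the longest.

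**Figure D5:**
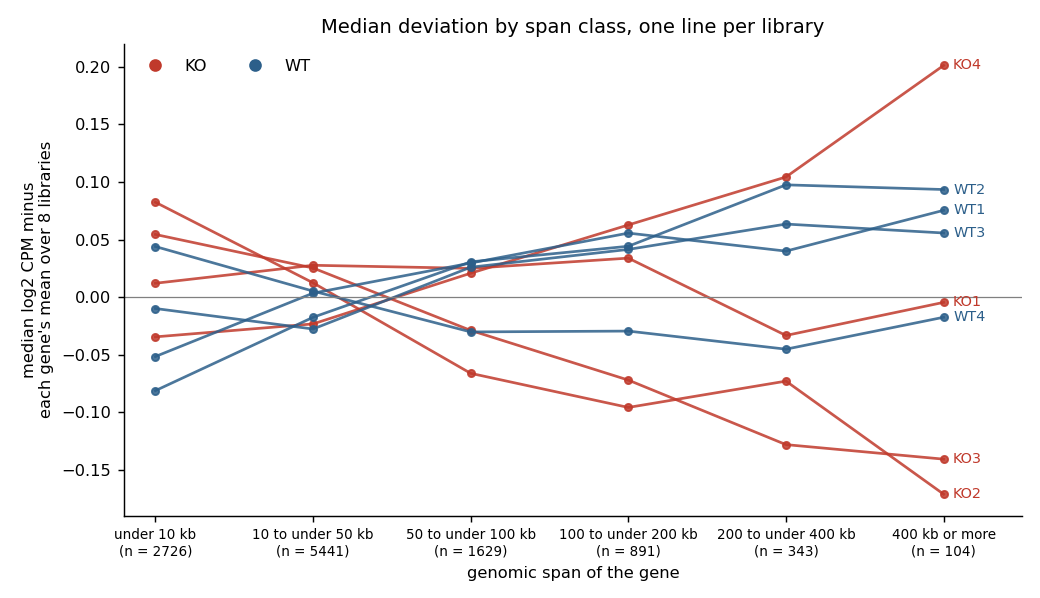
For each library, the median log2 CPM minus each gene's mean over the 8 libraries is plotted against the span class of the gene, with KO libraries in red and WT libraries in blue. The lines cross near 10 to 50 kb and fan out with span, to 0.20 in the library labelled KO4 and -0.17 in KO2 at 400 kb or more.

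Grouped by what they encode, in groups made after the members were known, 17 transcription factors and chromatin proteins had 11 lower and 6 higher estimates, with a median log2 fold change of -0.04 and 0 calls (12 lower and -0.21 without the library labelled KO4). Besides Foxp1 and Zbtb20, the most counted were Hdac9, a class IIa histone deacetylase, at 87.0 ± 11.4 CPM in KO and 81.5 ± 17.6 CPM in WT libraries, and Aff3, a scaffold of elongation complexes first known from lymphoid cells, at 68.5 ± 4.63 against 69.4 ± 12.4 CPM (SD, n = 4 each). Rora, the nuclear receptor that innate lymphoid cells of group 2 (ILC2) require, was at 34.4, 31.8, 38.5 and 60.3 CPM in KO1 to KO4, against 34.6, 51.9, 71.8 and 45.4 CPM in WT1 to WT4. WT3 and the library labelled KO4 held its highest values. The 9 other ILC2 markers of the list used here summed to 305, 159, 335 and 361 unscaled CPM in KO1 to KO4, and 270, 361, 571 and 270 unscaled CPM in WT1 to WT4. WT3 was again highest, and none of the markers was at 0 in every library. Their part in the level of Rora was not tested.

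Sox6, a factor of red cell maturation, varied widely between libraries of both genotypes. It was at 2.12, 1.296, 0.246 and 0.468 CPM in KO1 to KO4, against 6.32, 1.18, 0.429 and 0.143 CPM in WT1 to WT4, from 8 to 218 counts per library. The 14 erythroid markers, all tested and none at 0 in every library, summed to 518, 295, 118 and 128 unscaled CPM in KO1 to KO4, and 1127, 455, 172 and 102 unscaled CPM in WT1 to WT4. Library 1 was highest in each group for the marker sum and for Sox6. Slc25a21, a mitochondrial oxodicarboxylate carrier, was at 2.06, 0.525, 0.523 and 0.724 CPM in KO1 to KO4, against 2.93, 2.43, 0.491 and 0.0285 CPM in WT1 to WT4. Reln, a secreted glycoprotein best known from brain layering, was at 2.31, 0.309, 0.615 and 1.252 CPM in KO1 to KO4, against 3.33, 0.364, 0.307 and 0.999 CPM in WT1 to WT4. These 3 genes were among the 6 of largest SD (1.62 for Sox6, 1.63 for Slc25a21 and 1.23 for Reln, in log2 CPM), and the part of erythroid cells in their levels was not tested. Lineage depletion is meant to remove erythroid cells.

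The 22 GTPase regulators and vesicle traffic proteins had 17 lower and 5 higher estimates, with a median log2 fold change of -0.07 (18 lower and -0.18 without KO4). Arhgap15 was at 212, 214, 225 and 307 CPM in KO1 to KO4, against 203, 227, 249 and 227 CPM in WT1 to WT4, and the library labelled KO4 stood apart. Elmo1 was at 219 ± 19.9 CPM in KO and 223 ± 25.4 CPM in WT libraries, and Rabgap1l at 241 ± 46.3 against 246 ± 41.7 CPM (SD, n = 4 each). The 3 DOCK genes of the list thus differed among themselves, with log2 fold changes of -1.39 ± 0.41 for Dock4, -0.04 ± 0.11 for Dock2 and 0.20 ± 0.21 for Dock1 (SE), though none passed the test.

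The 11 kinases, phosphodiesterases, phosphatases and calcium sensors had 8 lower and 3 higher estimates, with a median log2 fold change of -0.21 (10 lower and -0.33 without KO4). Inpp4b, a phosphatase that removes the 4-phosphate of phosphoinositides (chromosome 8, 82069185 to 82854543, plus strand), was at 65.8, 20.9, 53.4 and 72.6 CPM in KO1 to KO4, against 67.0, 64.7, 74.6 and 55.1 CPM in WT1 to WT4. Only KO2 lay far from the others, and KO2 was also the lowest library for the ILC2 marker sum. Pde4b, a cyclic AMP phosphodiesterase of leukocytes, was at 101, 158, 122 and 244 CPM in KO1 to KO4, against 98.9, 139, 156 and 180 CPM in WT1 to WT4. In both groups library 4 was highest and library 1 lowest for Pde4b. Pde4d, its paralog and at 1504 kb among the 6 longest members, was at 9.96 ± 2.0 CPM in KO and 11.8 ± 4.39 CPM in WT libraries (SD, n = 4 each). Prkca, protein kinase C alpha, was at 40.8 ± 12.9 against 50.6 ± 6.38 CPM, and Camk1d, a calmodulin-dependent kinase, at 182 ± 6.86 against 188 ± 13.9 CPM.

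Channels, transporters, receptors and adhesion proteins were 19 genes with 14 lower and 5 higher estimates and a median log2 fold change of -0.15 (14 lower and -0.41 without KO4), and most were lowly expressed, with a median of 3.65 unscaled CPM. Grm8, a glutamate receptor known from neurons, was at 12, 2.16, 5.93 and 12.7 CPM in KO1 to KO4, against 22.9, 7.34, 6.44 and 13 CPM in WT1 to WT4. Cacna1e, a voltage-gated calcium channel subunit named here after its values were seen, was at 16.5, 5.68, 7.66 and 21.5 CPM in KO1 to KO4, against 30.8, 13.6, 12.8 and 20.5 CPM in WT1 to WT4. Both were low in libraries 2 and 3 and high in libraries 1 and 4 of each group. March1, a ubiquitin ligase of antigen presentation from another group, likewise named after its values were seen, shared that arrangement, at 15.4, 2.90, 6.64 and 12.3 CPM in KO1 to KO4, against 17.6, 5.07, 5.67 and 14.3 CPM in WT1 to WT4. Slc39a11, a zinc transporter, was the most counted gene of the group, at 118 ± 11.3 CPM in KO and 111 ± 15.5 CPM in WT libraries (SD, n = 4 each). Ryr3, an intracellular calcium release channel, was at 0.558, 0.555, 1.75 and 1.67 CPM in KO1 to KO4, against 1.51, 0.288, 0.184 and 1.71 CPM in WT1 to WT4, with wide overlap.

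The 16 cytoskeleton, polarity and scaffold proteins had 10 lower and 6 higher estimates, with a median log2 fold change of -0.17 (12 lower and -0.34 without KO4). Utrn, the dystrophin relative utrophin, was at 97.2, 78.7, 70.7 and 117 CPM in KO1 to KO4, against 114, 108, 123 and 83.1 CPM in WT1 to WT4. KO2, KO3 and WT4 held its lowest values. Diaph3, a formin of cell division, was at 51.9 ± 2.0 CPM in KO and 49.96 ± 7.46 CPM in WT libraries, and Lpp, a focal adhesion protein, at 66.3 ± 18.3 against 71.6 ± 6.01 CPM (SD, n = 4 each). Dlg2, a synaptic scaffold spanning 1973 kb (chromosome 7, 90125880 to 92098455, plus strand), was at 4.0 ± 1.46 CPM in KO and 5.05 ± 1.87 CPM in WT libraries.

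The 12 genes of DNA repair, ubiquitin, metabolism and other functions were evenly split, with 6 lower and 6 higher estimates and a median log2 fold change of 0.02 (7 lower and -0.03 without KO4). Rad51b, a recombination protein, was at 17.2 ± 0.735 CPM in KO and 16.0 ± 2.99 CPM in WT libraries, and Cpq, a carboxypeptidase, at 29.2 ± 6.59 against 26.8 ± 3.84 CPM (SD, n = 4 each). Fhit was at 7.47 ± 0.487 CPM in KO and 7.95 ± 0.968 CPM in WT libraries. Macrod2, which removes ADP-ribose marks, was at 1.22 ± 0.435 against 1.28 ± 0.333 CPM, and Ccser1, at 1203 kb, at 1.62 ± 0.821 against 2.26 ± 0.870 CPM. Macrod2, Dlg2, Fhit, Pde4d, Ccser1 and Auts2 are the 6 longest members, and each overlapped between the genotypes.

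The 7 RNA-binding, translation and noncoding RNA genes had 4 lower and 3 higher estimates and a median log2 fold change of -0.01 (5 lower and -0.07 without KO4). Snd1 was at 282 ± 19.9 CPM in KO and 292 ± 40.2 CPM in WT libraries, Fars2 at 44.6 ± 3.11 against 42.6 ± 1.88 CPM and Cdkal1, a tRNA-modifying enzyme, at 40.1 ± 5.26 against 45.6 ± 7.42 CPM (SD, n = 4 each). Snhg14, an imprinted nuclear transcript that hosts small nucleolar RNAs and runs antisense to Ube3a, was at 0.809, 1.33, 1.20 and 1.76 CPM in KO1 to KO4, against 1.97, 1.93, 2.36 and 1.24 CPM in WT1 to WT4. As the library kit does not mark strand, reads of Snhg14 and of its antisense partner cannot be told apart, and the same holds for other members with a gene on the opposite strand.

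Lower estimates were found among abundant and scarce members alike. Of 49 members at 20 or more unscaled CPM, 34 were lower, with a median log2 fold change of -0.05, and of 55 below that level 36 were lower, with a median of -0.13. Without the library labelled KO4 these were 37 with -0.13 and 41 with -0.32. The median SD of log2 CPM was 0.234 in the higher and 0.450 in the lower level class.

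Of 42 genes listed as lying at common fragile sites, 41 were found in the files, 31 were tested and 21 were members. Among the 31, 21 had lower and 10 higher estimates, with a median log2 fold change of -0.09. That is also the median of the 104 genes, but as 21 of the 31 are members, the medians are not independent. Without the library labelled KO4 22 were lower, with a median of -0.31. Genes of transcription elongation and of topoisomerases, on which long genes are known to depend, were all tested. Of the 45, 27 had lower and 18 higher estimates, 0 were called by edgeR, and the median log2 fold change was -0.02 (26 lower and -0.03 without KO4). Top1, which relieves supercoils ahead of the polymerase, was at 139, 138, 147 and 170 CPM in KO1 to KO4, against 183, 162, 177 and 138 CPM in WT1 to WT4. Top2b was at 75.2 ± 5.09 CPM in KO and 71.7 ± 14.0 CPM in WT libraries, and Cdk12, a kinase needed for transcription through long genes, at 32.4 ± 6.28 against 37.9 ± 3.55 CPM (SD, n = 4 each), with none of the 3 past the threshold (edgeR).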

How the data were processed

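RNA of 4 KO and 4 WT libraries was sequenced, grouped by title and genotype label. The authors deposited whole-number counts per gene from featureCounts 1.6.4, per the file headers, with exon coordinates and exon length per gene, and RSEM 1.3.1 expected counts and TPM values per gene, per the submitters' processing notes, which also name STAR 2.6.0a, Picard 2.19 and build mm10. The header's annotation path names GRCm39. Marked duplicates, strand and pairs were left at defaults, per the command line in the file headers, so both strands were counted together and reads over several genes were left out. Symbols were matched for 52093 of 53647 genes. The fit of KO against WT used edgeR 4.0.16 (R 4.3.3; filterByExpr, TMM, quasi-likelihood F test, Benjamini-Hochberg, threshold 0.05). The SE is the estimate over the square root of F, and log2 CPM used a prior count of 3. The fit was tested on simulated data, where it recovered 50% of 2-fold and 80.8% of 4-fold changes and called 8 unchanged genes. Expected counts were rounded to whole numbers for an alternative fit. DESeq2 1.42.0, RLE factors, library size alone, no filter, Xist or TEC share as covariate, other span and level minimums, the replicate number as block and each library left out were the other alternatives. Members, lists and tests were chosen with earlier results of these data known. Members with the highest TPM, smallest p per direction, longest span, largest and smallest SD and highest level per role list were named, and others are said to be. Some genes that this rule names are not reported here.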

Additional observations from a re-analysis of the deposited data

Results flagged for a closer look

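In groups of 4 libraries, 162 sets of values were searched for a library far from the other 3 of its group, and 9 were found, where chance gives about 1 in 20. Most were high values in the library labelled KO4. Arhgap15 was at 307 CPM there, against 212 to 225 CPM in KO1 to KO3, and Zbtb20 at 157 CPM against 61.0 to 70.7 CPM. The TEC share was 0.308% there, against 0.117% to 0.126% in the other KO libraries, and Kcnq1ot1 was at 116 CPM against 27.8 to 31.3 CPM. Trerf1 itself was at 22.1 CPM in the library labelled KO4, against 12.1 to 13.4 CPM in KO1 to KO3. Slc25a21 was high in KO1, at 2.06 CPM against 0.523 to 0.724 CPM in the other KO libraries. Among WT libraries, Sox6 was high in WT1, at 6.32 CPM against 0.143 to 1.18 CPM in WT2 to WT4. WT2 was high for Auts2, at 33.9 CPM against 22.2 to 23.0 CPM, and for Prkca, at 60.1 CPM against 46.9 to 48.2 CPM in the other WT libraries.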

How the results depend on the processing

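No estimate of the 16 members named for their small p changed sign under 17 alternatives. These members were picked by their p in the main fit, and the alternatives reused most of its libraries. A kept sign is therefore no independent check, and it does not cover the other members. The number of members at an unadjusted p under 0.05, 2 as reported, was 5 without a filter (2.78% of all genes), 4 with DESeq2 (1.88%), 13 with Xist as covariate (3.0%), 1 with the TEC share as covariate (1.92%), 24 without KO4 and WT4 (8.75%), and ran from 1 to 20 with 1 library left out (8 without WT4, 20 without KO4). Samples share only a replicate number: deviations of same-numbered libraries correlated at 0.362, 0.309, -0.0315 and 0.119. The WT library that correlated best was WT1 for KO1 and WT2 for KO2, but WT4 for KO3 and WT3 for the library labelled KO4. With that number as a replicate block 11 members had an unadjusted p under 0.05 in edgeR (3.88% of all genes) and 70 had lower estimates. With a span minimum of 300 kb the rule took 204 genes, 136 with lower estimates and 4 at p under 0.05. With 500 kb it took 63, with 41 and 1, and with a mean CPM of at least 2 the count at p under 0.05 was 1. The shares at that p were 1.96%, 1.59% and 1.12% in these settings, against 1.97% of all genes. Of all genes, 48.3% had lower estimates. In the other settings the counts moved by less than 1.5 times, and the cause of the shifts was not tested. With 1 library left out the median log2 fold change ran from -0.22 (without KO4) to -0.04 (without KO2). Depth limits the 15 members under 2 CPM, where some libraries held under 10 counts.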
